A study of Arabidopsis thaliana with 8 samples.

Results

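In mature leaves of Arabidopsis thaliana, 950 of 22746 probe sets (4.18%) on an Affymetrix array lay lower on every treated array than on either untreated array. The treated plants had received 1 of 3 chemicals. The 89 members described here are the part of these 950 set apart by distance, level and symbol. They were chosen by value: the highest of the 6 treated arrays lay at least 0.5 below the lower of the 2 untreated arrays on the log2 scale, and the untreated mean was at least 3.5. In all 93 probe sets (0.409% of those measured) met both thresholds, and 4 of them, with symbols that the choice left out (RALFL34, TBL36, GH9B8 and a probe set shared by UGT71D1 and AT2G29710), are not among the members. The choice used every difference between treated and untreated leaves, so those differences are given as descriptions with no test, and tests are given only for differences between the treatments. The number rests on single arrays: the same thresholds gave 418 probe sets when untreated replicate 1 was dropped, 1309 when untreated replicate 2 was dropped, 263 when salicylic acid replicate 1 was dropped and 138 when clothianidin replicate 2 was dropped. With the direction turned, 213 probe sets lay at least 0.5 higher on every treated array at any level, beside 99 lower.

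The plants were wild-type Columbia-0, 4 weeks old at treatment and grown on soil in a 12 h photoperiod. One group received 4 mM clothianidin, another 4 mM imidacloprid and another 4 mM salicylic acid, and leaves were taken 4 days later together with leaves of untreated plants, which are not described as having received a solution without the chemical. Each group held 2 arrays from independent experiments, each made from 100 mg of fully expanded leaf. In bulk leaf, fewer cells of a type and less RNA per cell cannot be told apart, and p-values measure only the spread between these arrays. Replicate arrays correlated across probe sets at r = 0.955 in untreated leaves and 0.963, 0.969 and 0.919 under clothianidin, imidacloprid and salicylic acid, so the salicylic acid pair stood furthest apart.

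Salicylic acid is the plant hormone that accumulates in leaves attacked by biotrophic pathogens and switches on defence genes, and its action is commonly accompanied by lower expression of genes for growth. Clothianidin and imidacloprid are neonicotinoids, insecticides that act on the acetylcholine receptors of insects. They differ in structure: the chain of clothianidin is open and bears a chlorothiazole, whereas imidacloprid carries a closed imidazolidine and a chloropyridine. A leaf gene that lies lower under all these agents may belong to any process, and the members are described below by what their products are known to do.

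Of the 89 probe sets 44 were named by a single locus, 44 had no gene in the probe table and 1 matched several genes. Only 4 of the 44 loci carry a symbol of their own in the annotation (TON1B, ATCSLC08, CLE26 and SIM), and the roles given for the others are general knowledge of these loci. The members were leaf genes of moderate signal: untreated means ran from 3.53 to 11.4 with a median of 5.55, against 4.96 over all probe sets, and 52 of the 89 lay under 6. On the treated arrays their average lay between 0.61 and 3.97 below the untreated mean, with a median of -1.68. On untreated replicates 1 and 2 the members' median level was 5.76 and 5.42, and 57 of the 89 were higher on replicate 1, against 37.0% of all probe sets.

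Seen array by array, the members' median difference from the untreated mean was -1.25 and -1.23 on clothianidin replicates 1 and 2. It was -2.06 and -1.78 on the imidacloprid arrays, and -1.05 and -1.93 on the salicylic acid arrays. Salicylic acid replicate 2 thus lay near the imidacloprid arrays and replicate 1 near the clothianidin arrays, and 81 of the 89 members were higher on salicylic acid replicate 1 than on replicate 2, against 55.5% of all probe sets. Salicylic acid replicate 1 was the highest treated array for 46 members, against 16.2% of all probe sets, which means that it most often set the members' distance to the untreated arrays. The median SD between replicates was 0.47 over the members under salicylic acid, 0.19 under imidacloprid and 0.14 under clothianidin. Over all probe sets it was 0.21, 0.13 and 0.15 in the same order.

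**Figure D1:**
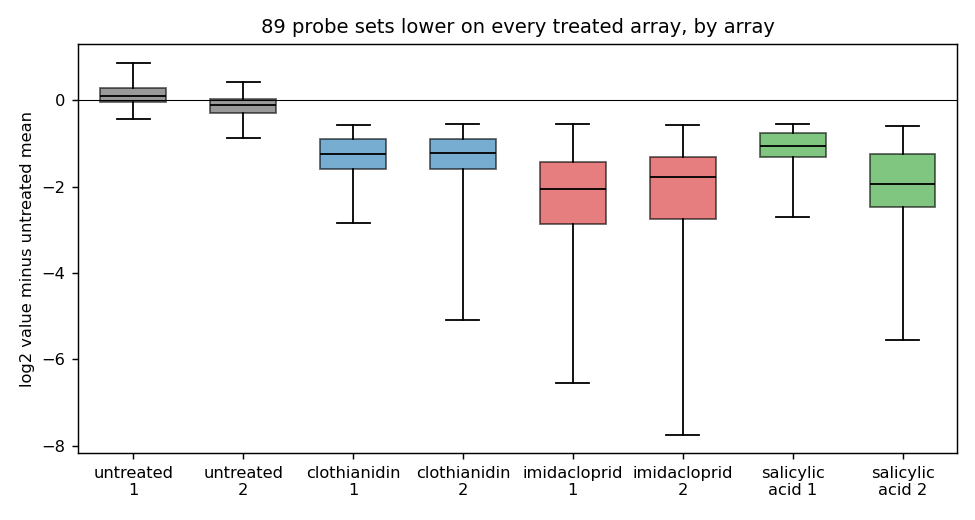
Log2 value minus the untreated mean (vertical axis) of the 89 members on each of the 8 arrays. Boxes span the quartiles with the median as a line, and whiskers reach the lowest and highest member. The medians of the imidacloprid arrays (-2.06 and -1.78) and of salicylic acid replicate 2 (-1.93) lie below those of the other 3 treated arrays.

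Mesophyll markers were lowest on the imidacloprid arrays and salicylic acid replicate 2. Unlike the members, they lay lower on untreated replicate 2 than on clothianidin replicate 1 and salicylic acid replicate 1. The mean level of the 3 measured of 9 listed mesophyll markers (RCA, SBPASE and PORB, which serve photosynthesis) was 13.2 and 12.3 on untreated replicates 1 and 2, and 12.7 and 12.2 under clothianidin. It was 11.4 and 10.8 under imidacloprid, and 13.0 and 10.9 under salicylic acid, so salicylic acid replicate 2 again lay beside the imidacloprid arrays. PYK10 and EXP7, the 2 measured of 6 listed root markers, averaged between 2.30 and 5.53, lowest on imidacloprid replicate 2 and highest on salicylic acid replicate 1, and 1 of them was below the 25th percentile of 2.49 on all arrays. The 1 measured of 5 listed guard cell markers, FAMA, lay between 3.15 and 5.59. Its mean was 3.64 under imidacloprid, against 4.84 to 5.18 in the other groups. SWEET11, the 1 of 7 vascular markers, lay between 10.9 and 12.2, with its lowest mean, 11.2, also under imidacloprid. TRY, the 1 of 4 trichome markers, lay between 2.71 and 4.94, with its highest mean, 4.16, under imidacloprid. None of the measured markers was a member. Markers were listed by symbol, so those not found here may still be on the array without a name. The actin 3′ minus 5′ difference, a control that rises as RNA degrades, was 0.85 and 2.17 on the untreated arrays, 1.04 and 1.75 under clothianidin, 0.87 and 1.11 under imidacloprid and 0.74 and 1.41 under salicylic acid. This difference was higher on replicate 2 than on replicate 1 in each group, and highest on untreated replicate 2. Members higher on replicate 1 numbered 57 of 89 in untreated leaves, 45 under clothianidin, 37 under imidacloprid and 81 under salicylic acid. The shares over all probe sets were 37.0%, 59.0%, 60.3% and 55.5% in the same order. Between the groups the actin difference did not follow the order of the members. The part of leaf cell makeup and RNA quality in the members' levels was not tested.

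The largest gap between untreated and treated arrays among named members belonged to AT3G48490, a locus with no known role given here. Its values were 7.18 and 6.96 on untreated replicates 1 and 2, 5.73 and 4.60 under clothianidin, 5.53 and 4.50 under imidacloprid and 5.38 and 4.02 under salicylic acid. The 3 treatments overlapped throughout, and in each of them replicate 2 was the lower array. AT5G41140, which encodes a protein related to myosin heavy chains, followed with 6.02 and 4.48 in untreated leaves and values between 2.81 and 3.34 on all treated arrays. Here the untreated replicates stood further apart than any treated arrays did. AT3G08630, of a family of chloroplast envelope proteins related to RETICULATA, lay at 4.10 and 4.20 in untreated leaves, 3.00 and 2.80 under clothianidin, 2.53 and 2.47 under imidacloprid and 2.74 on both salicylic acid arrays.

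AT1G12010 encodes a member of the family of ACC oxidases, the enzymes that make ethylene. It lay at 5.39 and 4.78 in untreated leaves and at 2.52 and 2.49 under clothianidin as well as under imidacloprid. With salicylic acid it lay at 3.77 and 2.47, so 5 of the 6 treated arrays were at about 2.49, the 25th percentile of all probe sets averaged over arrays and used here as a mark of low signal, and salicylic acid replicate 1 was above it. Because these values sit near the low signal mark, the size of its difference from untreated leaves (-2.58 under either insecticide) is not exact.

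**Figure D2:**
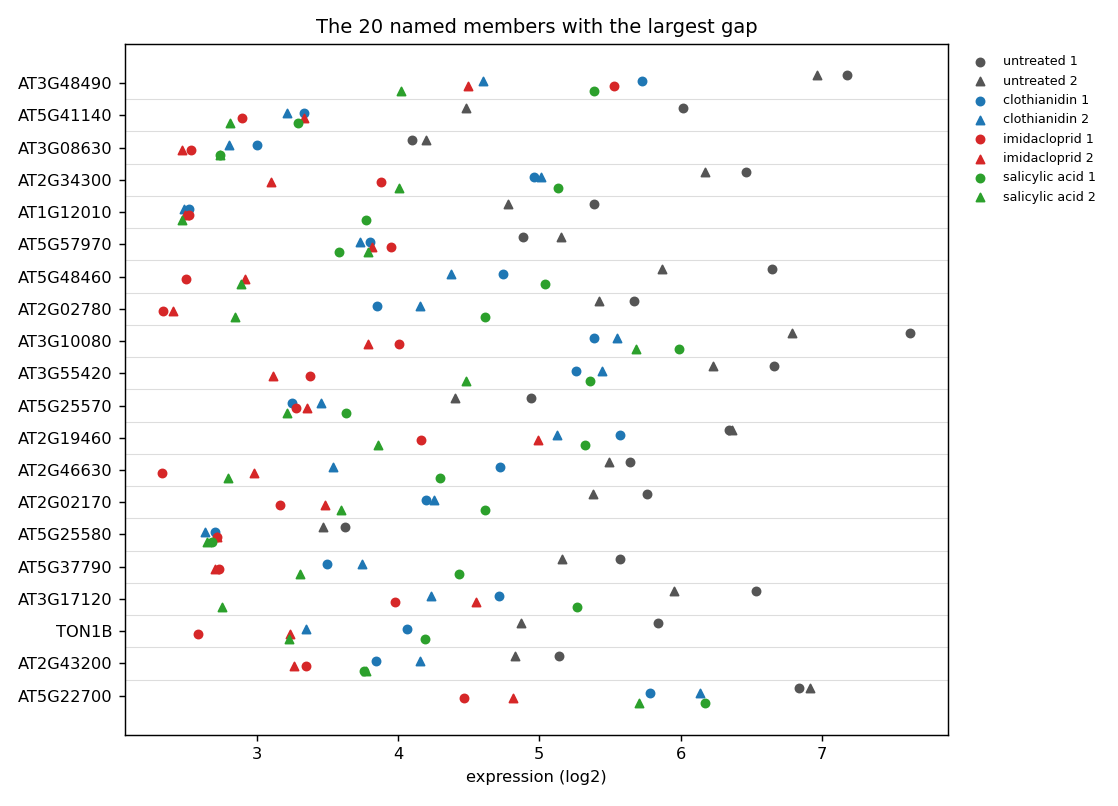
Log2 expression (horizontal axis) of the 20 named members with the largest gap between the lower untreated and the highest treated array, in descending order of that gap. Each point is 1 array, with circles for replicate 1 and triangles for replicate 2. For AT3G48490 at the top the untreated values are 7.18 and 6.96 and the highest treated value is 5.73.

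For 9 of these 20 genes both imidacloprid arrays lay below all other treated arrays: AT3G08630, AT2G34300, AT2G02780, AT3G10080, AT3G55420, AT2G02170, AT5G37790, AT2G43200 and AT5G22700. The same held for 11.8% of all probe sets. It also held for 34.2% of 4800 other lowered probe sets, those with an untreated mean of at least 3.5 and all 3 treatment means below it. AT3G10080, which encodes a germin-like cupin, lay at 7.63 and 6.79 in untreated leaves, 5.39 and 5.55 under clothianidin, 4.00 and 3.79 under imidacloprid and 5.99 and 5.69 under salicylic acid. AT3G55420, with no known role given here, lay at 6.66 and 6.23, 5.26 and 5.45, 3.38 and 3.12, and 5.36 and 4.48 in the same order. The F-box protein gene AT5G22700 lay at 6.84 and 6.92, 5.78 and 6.14, 4.46 and 4.82, and 6.17 and 5.71. Salicylic acid replicates also stood apart by more than 1 in several of the 20, among them AT3G48490, AT1G12010, AT5G48460 and AT2G02780, whose values are given with their groups, and 3 loci with no known role given here. The salicylic acid values of AT2G19460 were 5.32 and 3.86 against 6.34 and 6.37 in untreated leaves, and those of AT2G46630 were 4.29 and 2.80 against 5.64 and 5.49. For AT3G17120 they were 5.27 and 2.75 against 6.54 and 5.96, so for this gene the salicylic acid arrays were both the highest and the lowest treated arrays.

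Among the cell wall and Golgi enzymes 5 members were grouped, and all 5 had their lowest treatment mean under imidacloprid. So did 75.3% of all members and 78.3% of the 4800 other lowered probe sets. ATCSLC08, a cellulose synthase-like gene of the family that makes the glucan backbone of xyloglucan, had means of 5.34 ± 0.01 in untreated leaves, 4.11 ± 0.78 under clothianidin, 2.76 ± 0.92 under imidacloprid and 3.66 ± 0.74 under salicylic acid (SD, n = 2). Both imidacloprid arrays lay below both clothianidin arrays, while the salicylic acid arrays overlapped those of each insecticide. AT2G41770, which encodes a Golgi protein that acts in the assembly of the cellulose synthase complex, had means of 6.99 ± 0.10 in untreated leaves, 6.08 ± 0.35 under clothianidin, 5.41 ± 0.28 under imidacloprid and 6.24 ± 0.22 under salicylic acid (SD, n = 2). AT2G34300 and AT2G43200 belong to a superfamily of methyltransferases; AT2G34300 lay at 6.32 ± 0.20 without treatment and at 4.99 ± 0.03, 3.49 ± 0.55 and 4.57 ± 0.79 under clothianidin, imidacloprid and salicylic acid (SD, n = 2). The probe set for AT2G43200 is of a kind that can bind related transcripts, so its value is uncertain. AT4G33440, a pectin lyase-like gene, differed least, by -0.64, -0.70 and -0.62 from an untreated mean of 3.63.

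The cytoskeleton and cell cycle genes held 4 members. TON1B, whose protein organises cortical microtubules and the ring that marks the division plane, lay at 5.84 and 4.87 in untreated leaves, 4.07 and 3.35 under clothianidin, 2.58 and 3.23 under imidacloprid and 4.19 and 3.23 under salicylic acid. SIM (SIAMESE), an inhibitor of cyclin-dependent kinases that keeps trichome cells from dividing, lay at 5.40 and 5.66, 3.99 and 3.95, 3.19 and 4.86, and 4.82 and 4.12 in the same order of groups. Its imidacloprid replicates spanned the values of all other treated arrays. AT5G48460, a fimbrin that bundles actin filaments, lay at 6.26 ± 0.55 in untreated leaves and 2.71 ± 0.29 under imidacloprid (SD, n = 2), while its salicylic acid arrays were at 5.04 and 2.89. AT3G42660, which encodes a WD40 repeat protein, lay at 5.11 and 4.12 in untreated leaves and between 2.74 and 3.58 on the treated arrays. None of these 4 reached an unadjusted p under 0.05 in limma between any treatments. Over all probe sets 13.8% did for clothianidin against imidacloprid, 12.9% for imidacloprid against salicylic acid and 1.22% for clothianidin against salicylic acid. With only 4 genes, 0 does not set this group apart.

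Protein kinases gave 4 members, AT2G02780 with leucine-rich repeats, AT5G37790, AT1G56720 and AT3G26700. Each had its lowest treatment mean under imidacloprid, as did 75.3% of all members. AT2G02780 lay at 5.67 and 5.42 in untreated leaves, 3.85 and 4.15 under clothianidin, 2.34 and 2.41 under imidacloprid and 4.62 and 2.85 under salicylic acid. Its imidacloprid values were under the low signal mark. AT1G56720 had the widest salicylic acid replicates of the 4, at 6.19 and 3.40, against 7.34 and 6.71 in untreated leaves and 3.35 and 3.39 under imidacloprid. AT3G26700 lay between 3.24 and 3.49 on all treated arrays, under untreated values of 4.28 and 4.03.

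Membrane proteins and transporters held the member with the highest signal and the widest range. AT4G30650, of the family of small hydrophobic proteins induced by low temperature and salt, lay at 11.18 and 11.64 in untreated leaves, 8.57 and 10.60 under clothianidin, 4.86 and 3.67 under imidacloprid and 10.31 and 9.65 under salicylic acid. Both imidacloprid arrays were far below all other treated arrays. AT5G13400, a transporter gene of the nitrate and peptide transporter family, lay at 6.98 and 7.11, 5.78 and 6.47, 2.85 and 3.07, and 6.29 and 4.57 in the same order. AT3G06035, which encodes a GPI-anchored glycoprotein, had a mean of 6.06 ± 0.10 in untreated leaves and 2.27 ± 0.23 under imidacloprid, against 4.90 ± 0.81 and 4.20 ± 0.91 under clothianidin and salicylic acid (SD, n = 2). Its imidacloprid mean was under the low signal mark. The remorin gene AT2G02170 had means of 5.57, 4.23, 3.32 and 4.11 in untreated, clothianidin, imidacloprid and salicylic acid leaves. AT1G03270, a CBS domain protein gene, lay between 2.91 and 3.18 on all treated arrays, against 3.85 and 3.83.

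Among the other enzymes, the aspartyl protease gene AT1G01300 lay at 7.60 and 6.82 in untreated leaves, 5.77 and 6.31 under clothianidin, 2.40 and 3.31 under imidacloprid and 6.04 and 4.74 under salicylic acid. AT4G35880, also an aspartyl protease gene, was nearly level across treatments, with means of 3.78, 3.83 and 3.73 against 4.77. AT5G57970, a DNA glycosylase gene, had treatment means of 3.77, 3.88 and 3.68 against 5.02. AT1G20410, a pseudouridine synthase gene, and AT1G60230, a radical SAM enzyme gene, had untreated means of 5.62 and 6.13 and their lowest means, 4.60 and 4.43, under imidacloprid. CLE26, which encodes a small secreted signalling peptide, lay at 5.90 and 5.74 in untreated leaves, 4.57 and 4.52 under clothianidin, 2.92 and 3.15 under imidacloprid and 5.10 and 4.54 under salicylic acid.

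**Figure D3:**
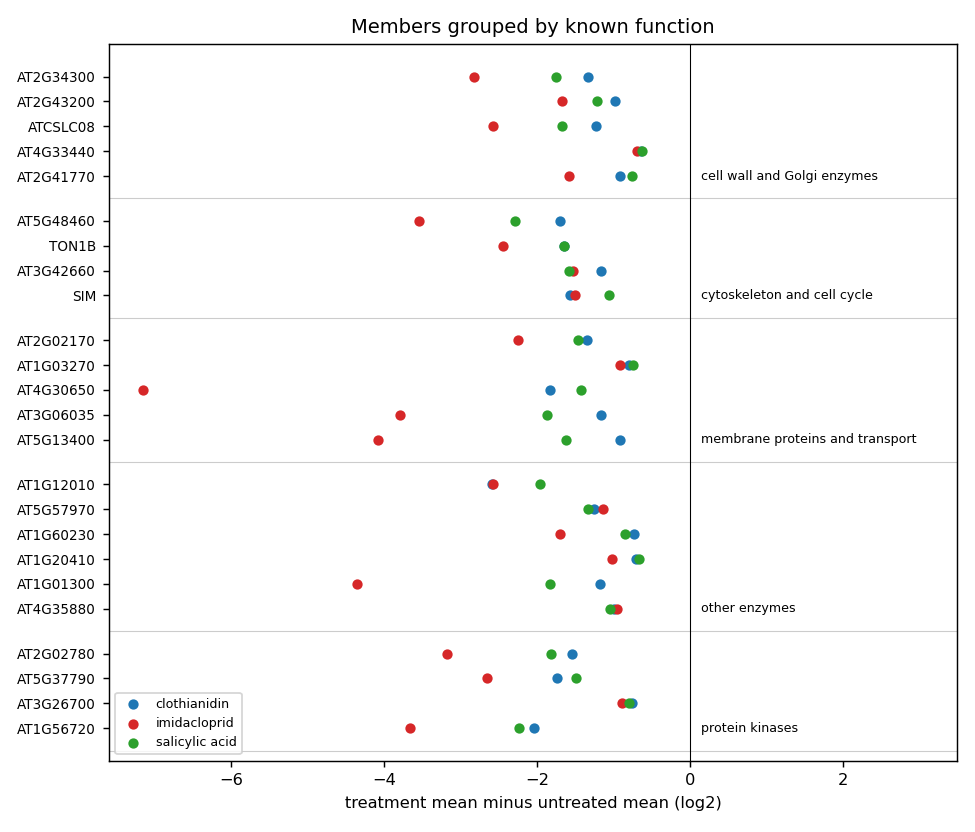
Treatment mean minus untreated mean (log2, horizontal axis) of the 24 members placed in 5 groups by known function, with 1 point for each treatment (n = 2 arrays). AT4G30650 has the lowest imidacloprid value, -7.15, while the points of AT4G35880, AT5G57970 and AT4G33440 nearly coincide.

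The 5 function groups were formed after the members were known. Among them the median difference from untreated leaves was largest under imidacloprid for membrane proteins (-3.80 over 5 genes). For the same genes it was -1.17 under clothianidin and -1.47 under salicylic acid. The -3.80 is the value of AT3G06035, whose imidacloprid mean of 2.27 lay under the low signal mark, so its size is not exact. For the 4 kinases the medians were -1.64, -2.91 and -1.65 under clothianidin, imidacloprid and salicylic acid. The 4 cytoskeleton and cell cycle genes had -1.61, -1.99 and -1.62, the 5 cell wall enzymes -0.98, -1.68 and -1.22, and the 6 other enzymes -1.08, -1.42 and -1.19. Over all probe sets the same medians were -0.02, 0.02 and -0.02. The order of the groups is a description of genes that were picked for being low.

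The treatments were not equal in depth. Imidacloprid gave the lowest treatment mean for 67 of the 89 members (75.3%), salicylic acid for 18 and clothianidin for 4, whereas over all probe sets imidacloprid was lowest for 31.9%. The count for imidacloprid was 58 with arrays centred on their medians, and between 55 and 74 with single treated arrays left out. This order was not particular to the members: among the 4800 other probe sets with an untreated mean of at least 3.5 and all 3 treatment means below it, imidacloprid was lowest for 78.3%. Both imidacloprid arrays lay below the 4 other treated arrays for 35 members (39.3%), against 11.8% of all probe sets and 34.2% of the 4800. The same held of both salicylic acid arrays for 1 member, against 4.86% of all probe sets, and of both clothianidin arrays for 0, against 3.03%. Of the 14 members with a gap of at least 1, imidacloprid was lowest for 7.

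Clothianidin and imidacloprid were compared at the same dose and time, one of 3 comparisons between treatments. No member passed limma's test at an adjusted p under 0.05 (22 probe sets, 0.0967% of all, did). That background count was 279 without imidacloprid replicate 1, 157 without imidacloprid replicate 2, 36 without clothianidin replicate 1 and 8 without clothianidin replicate 2. It was 14 without either salicylic acid array and 1 without either untreated array. At an unadjusted p under 0.05 there were 28 of 89, or 31.5% against 13.8% of all probe sets, and 26 with an intensity trend and a robust prior, which also called 0. All 28 were higher under clothianidin, a direction with 6.34% of all probe sets. The members' median difference, clothianidin minus imidacloprid, was 0.66, against -0.04 over all probe sets and 0.61 over the 4800 other lowered ones. It was 0.70 within replicate number 1 and 0.48 within number 2. The smallest adjusted p, 0.0940, belonged to an unnamed probe set at a difference of 2.87, which alone passed when clothianidin replicate 1 was left out (limma adjusted p = 0.0301).

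Single genes gave wide intervals. Clothianidin minus imidacloprid, AT4G30650 differed by 5.32 (95% confidence interval 3.22 to 7.43; limma adjusted p = 0.160). CLE26 differed by 1.51 (0.98 to 2.05; limma adjusted p = 0.146) and AT3G15410, a leucine-rich repeat protein gene, by 0.99 (0.58 to 1.41; limma adjusted p = 0.167). AT1G01300 and AT5G13400 differed by 3.19 (1.63 to 4.75, limma adjusted p = 0.193) and 3.17 (1.59 to 4.75, limma adjusted p = 0.197). In both genes the 2 imidacloprid arrays lay below both clothianidin arrays, and neither gene was called. At the other end AT5G57970 differed by -0.12 (-0.44 to 0.21) and AT1G06420, a locus with no known role given here, by -0.06 (-0.18 to 0.06). For AT1G12010 the difference was under 0.01 in size, with an interval from -1.22 to 1.21. That interval uses a spread shared by all 4 groups. The SD of this gene was 0.92 under salicylic acid and 0.43 in untreated leaves. Under each insecticide it was 0.02, with values near the low signal mark, so the interval does not describe the insecticide arrays alone.

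Imidacloprid against salicylic acid also gave no called member in limma's test, with 19 probe sets (0.0835%) called over the whole array. That count was 276 without imidacloprid replicate 1, 158 without imidacloprid replicate 2 and 1 without either untreated array. At an unadjusted p under 0.05 there were 22 of 89 (24.7% against 12.9% of all probe sets; 17 with the trend and robust prior), all lower under imidacloprid, a direction with 5.50% of all probe sets. The members' median difference, imidacloprid minus salicylic acid, was -0.46, against 0.04 over all probe sets and -0.52 over the 4800 other lowered ones. For the members it was -1.03 within replicate number 1 but -0.03 within number 2. Without salicylic acid replicate 1 the median was -0.13, and without replicate 2 it was -0.79, so the size rests on which salicylic acid array is used. CLE26 differed by -1.79 (95% confidence interval -2.32 to -1.25; limma adjusted p = 0.133), the smallest adjusted p of the members. AT4G30650 differed by -5.72 (-7.83 to -3.61; limma adjusted p = 0.154) and AT3G15410 by -1.18 (-1.59 to -0.76; limma adjusted p = 0.154).

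Clothianidin against salicylic acid gave no call in limma for members or for any probe set (0%), though 19 probe sets, none of them members, were called without salicylic acid replicate 1, 2 without clothianidin replicate 2 and 1 without clothianidin replicate 1. At an unadjusted p under 0.05 there was 1 member, the probe set that matches both PRA1.F4 and AT3G13700, and 277 probe sets (1.22%); the trend and robust prior gave 0 members. The median difference of the members was 0.19, clothianidin minus salicylic acid, against 0.00 over all probe sets and 0.07 over the 4800 other lowered ones. For the members it was -0.14 within number 1 and 0.45 within number 2. It was -0.16 without salicylic acid replicate 2. CLE26 differed by -0.27 (95% confidence interval -0.81 to 0.27) and AT1G06420 by 0.00 (-0.12 to 0.12), whereas the interval of AT4G30650 ran from -2.50 to 1.71.

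**Figure D4:**
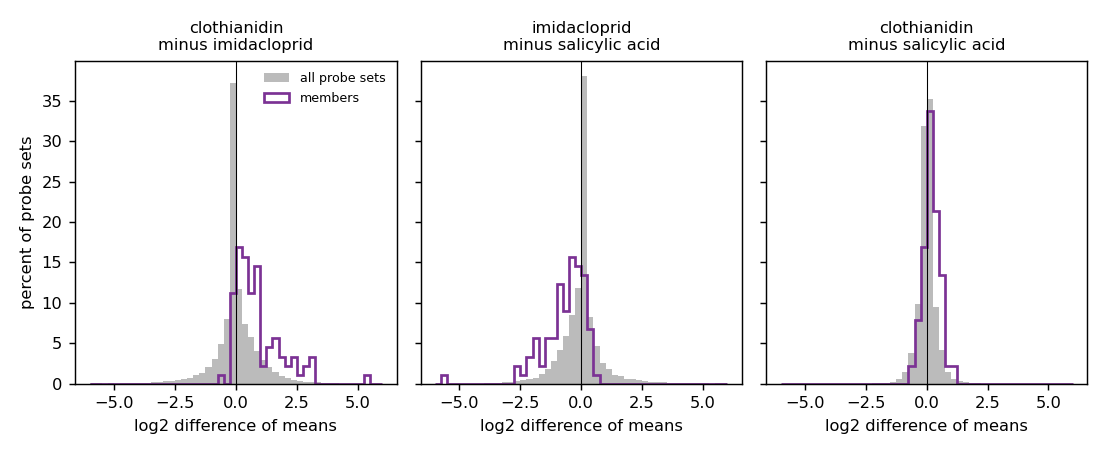
Share of probe sets (percent, vertical axis) by log2 difference between treatment means (horizontal axis), for all 22746 probe sets (grey) and the 89 members (outline). The members' medians are 0.66 for clothianidin minus imidacloprid, -0.46 for imidacloprid minus salicylic acid and 0.19 for clothianidin minus salicylic acid.

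Members therefore differed among themselves in the evenness of the treatments. For 33 of the 89 the 3 treatment means lay within 0.5 of each other (37.1%, against 57.0% of all probe sets, many of which carry little signal). These had a median untreated mean of 4.62, and 23 of the 33 had a treated mean less than 1 above the low signal mark. AT5G25580 was the most even, with 3.62 and 3.47 in untreated leaves and values from 2.64 to 2.72 on the treated arrays. As to depth, for 21 members the imidacloprid mean lay at least 1 below both other treatment means (6.70% of all probe sets and 22.5% of the 4800), and their median untreated mean was 6.88. Of these 21, 13 were named by a single locus, among them AT4G30650, AT5G13400, AT1G01300, AT3G06035 and CLE26. Imidacloprid means lay under the low signal mark for 8 of the 89 members, clothianidin means for 1 and salicylic acid means for 2.

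Families could be matched by symbol only, and since 4 of the 89 members carry one, the counts that follow say little about how many relatives the members have among themselves. They are also not counts of all family genes on the array, since 8730 of the 22746 probe sets had no gene in the probe table. Of 17 gene families listed by symbol, 12 had at least 1 gene matched in this way. Only the cellulose synthase family and the CLE peptides held a member, 1 of 8 and 1 of 6 matched genes. In the cellulose synthase family 2 of 8 were lower on every treated array by any distance, ATCSLC08 and CSLC5, against 4.18% of all probe sets. CSLC5 lay at 5.65 and 3.82 in untreated leaves and at 3.47 and 3.01, 2.31 and 2.60, and 3.68 and 2.27 under clothianidin, imidacloprid and salicylic acid, so its untreated arrays differed by more than the gap. The other CLE gene with signal in these leaves and lower means in all treatments, CLE41, had differences of -0.88, -1.72 and -0.65, but its arrays overlapped. Among 7 tubulin genes, which encode the subunits of microtubules, the medians were -0.81, -1.46 and -0.93 under clothianidin, imidacloprid and salicylic acid, and TUA6 and TUB7 were lower on every treated array, though neither was a member. The matched auxin response genes (7), subtilases (8) and cytochromes P450 (23) had no gene lower on every treated array, and their medians lay between -0.03 and 0.06. The nuclear light-harvesting and photosystem genes (7) had medians of -0.28, -1.20 and -0.64 in the same order of treatments, and the cold-regulated genes (4) of -0.66, -2.94 and -0.24, with 0 members and 0 genes lower on every treated array in either list. The 6 WRKY factors, transcription factors of defence, had medians more than 2 above untreated leaves under each of the 3 treatments. The 1 NAC factor and 5 basic helix-loop-helix factors matched by symbol held no gene lower on every treated array. The 1 pectin methylesterase gene matched by symbol, PME61, was lower but is no member.

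Of the members matched to the annotation, chromosomes 1 to 5 held 9, 8, 13, 4 and 9, beside 3451, 2200, 2746, 1962 and 3008 measured loci. Among the 44 members named by a single locus, only AT5G25570 and AT5G25580 were next to each other in the TAIR10.1 gene order. Members without a single locus could not be placed. AT5G25570 lay at 4.94 and 4.41 in untreated leaves and from 3.22 to 3.63 on the treated arrays, and AT5G25580 was nearly level across the treated arrays as given above. In 40 pairings of a member with a measured neighbour, the neighbour was lower on every treated array by any distance in 4. The share over all probe sets was 4.18%. Of the 4, 2 were AT5G25570 and AT5G25580 counted from each side.

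At the threshold itself, the 3 named members just inside were AT4G35880, AT5G13400 and AT3G57780, with gaps of 0.503, 0.505 and 0.508. The 3 probe sets just outside, also among those named by a single locus, were AT1G24290, AT2G01070 and AT1G14460, with gaps of 0.491, 0.491 and 0.488. AT2G01070 lay at 6.23 and 6.12 in untreated leaves and between 4.12 and 5.63 on the treated arrays, so its values resemble those of the members.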

How the data were processed

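RNA of 8 leaf samples was measured on Affymetrix arrays. The authors deposited 1 log2 value per probe set and array. RMA and affy are the tools that the submitters' processing notes name, without versions; the background step is not given in the sources used here. Control probe sets (64) were left out. Probe sets were named from the probe table and TAIR10.1: 13513 had a single gene, 503 several and 8730 none.

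A model with a mean for each group was fitted to the 8 arrays together (limma 3.58.1 under R 4.3.3, functions lmFit and eBayes), and p-values were adjusted by Benjamini-Hochberg over all 22746 probe sets; the 3 differences between treatments were tested, two-sided, at 0.05. The residual degrees of freedom were 4 (prior 0.766). The fit was tested on simulated data. An exact permutation test of 2 arrays against 2 cannot reach 0.05.

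The rule for named genes took the 20 single-locus members with the largest gap, members called between treatments (none), members of function groups of 3 or more, and the 3 on each side of the threshold; CLE26, AT3G15410, AT1G06420, CSLC5, CLE41, TUA6, TUB7 and PME61 were named after their values were seen, as were the thresholds for evenness. The members and lists were chosen with earlier results of these data known. Promoter motifs and protein sequences were not analysed here. The number of arrays limits the precision. Python 3.11.15 and matplotlib 3.10.9 drew the figures.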

Additional observations from a re-analysis of the deposited data

How the results depend on the processing

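The count of 89 members was 273 with a gap of at least 0.25, 14 with a gap of at least 1, 59 with an untreated mean of at least 5, 95 with no minimum level, 96 with arrays centred on their medians and 102 with quantile normalization repeated. Leaving out single arrays gave 90 to 1309; with fewer arrays the thresholds are easier to meet. Called members stayed at 0 in all alternatives for both comparisons with salicylic acid, also without untreated replicate 2 and clothianidin replicate 2 together, an alternative added after the data were seen, and were 0 to 1 for clothianidin against imidacloprid when single arrays were left out. Whether equal replicate numbers mark the same experiment is not stated in the labels. The replicate differences of the 6 pairs of groups correlated from -0.002 to 0.523, over 0.1 in 4 pairs but not between imidacloprid and untreated or salicylic acid. These values do not decide whether the replicates are paired. The fit without pairing was the planned main fit, and a replicate block was an alternative. With the replicate block the called members were 0 in each comparison, and the calls over all probe sets were 2, 3 and 0 in place of 22, 19 and 0. Leaving out single arrays moved those calls further, to between 1 and 279, between 1 and 276 and between 0 and 19. Fitting only the 4 arrays compared gave 0 calls, and the trend and robust prior gave 37, 42 and 0. The median difference of the members without single arrays ran from 0.50 to 0.70 for clothianidin minus imidacloprid, from -0.79 to -0.13 for imidacloprid minus salicylic acid, and from -0.16 (a reversed sign, without salicylic acid replicate 2) to 0.46 for clothianidin minus salicylic acid. The count of members lowest with imidacloprid was 7 of 14 with a gap of at least 1, and 55 to 74 without single arrays. The median treated minus untreated difference ran from -1.79 to -1.41 without single arrays. After centring, the medians of all probe sets were -0.10, 0.10 and -0.09 for clothianidin, imidacloprid and salicylic acid minus untreated, in place of -0.02, 0.02 and -0.02, and the member medians were -1.33, -1.85 and -1.56. Signal near background limits the sizes of the lowest members.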
